A study of Arabidopsis thaliana with 9 samples.

Results

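The NDR1/HIN1-like genes NDR1, NHL1, NHL2, NHL3, NHL10 and NHL25 were followed as 6 of the 32833 loci in a table of read counts from whole Arabidopsis seedlings, picked out by their locus codes. All seedlings were wild type of ecotype Col-0 and had grown for 5 days on solid medium and 5 more in liquid medium. The 3 groups of 3 libraries each were mock (labelled as no treatment), 100 nM flg22, and 200 uM of 2'-aminoacetophenone (2-AA). The sources used here do not give the hour of harvest, how long treatment lasted or what mock plants received. Replicates are described as biological, but what was grown separately is not stated. The p-values below set group differences only against the spread among these libraries.

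NDR1 encodes a plasma membrane protein that several intracellular immune receptors of Arabidopsis need in order to act, and that binds RIN4, a protein guarded by those receptors. Its relatives are named after NDR1 and after HIN1, a tobacco gene induced by the bacterial protein harpin. NHL10 is widely used as an early marker gene of the response to flagellin, of which flg22 is a peptide, and is also known as YLS9 for its transcript in yellowing leaves. 2-AA is a small volatile molecule that the bacterium Pseudomonas aeruginosa makes as part of its quorum sensing.

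Library totals ran from 26644996 to 33195007 counts. Levels are given in CPM, counts scaled by edgeR to a common library size. By library totals, before that scaling, 3 counts in a library correspond to 0.0904 to 0.113 CPM, taken as the floor for a gene at 0. Floors cover counting error only. The shoot, root and guard cell markers checked were detected, so that the material read as whole seedlings. Summed root marker levels (4 genes) were 121 to 141 CPM in mock, 39.9 to 49.6 with flg22 and 39.8 to 58.9 with 2-AA, and summed shoot marker levels (3 genes) were 26196 to 26719, 20798 to 23408 and 19194 to 22008 CPM. The genes within each sum differed. IRT1, an iron transporter gene of the root, went from a mean of 59.9 CPM in mock to 1.74 with flg22 and 10.01 with 2-AA. The root hair gene EXPA7 was at 12.1, 6.08 and 12.7 CPM and was not called with 2-AA. PRP3 changed by -0.62 and -1.23 and COBL9 by -0.96 and -0.81 on the log2 scale. All 4 root markers were called lower with flg22 and 3 of 4 with 2-AA, where 29.4% and 31.1% of all genes were. LHCB3, an antenna protein gene, went from 3138 CPM to 544 and 521, whereas the log2 fold changes of RBCS1A were -0.05 (not called) and -0.23 and those of CAB1 -0.21 and -0.27. The sum over 2 guard cell markers was 32.7 to 34.3, 34.1 to 34.9 and 32.1 to 34.4 CPM. Of these, MYB60 was at means of 16.3, 16.1 and 13.2 CPM and was called lower with 2-AA (log2 fold change -0.30, edgeR adjusted p = 0.0363). FAMA was at 17.0, 18.5 and 19.7 CPM and was called with neither treatment. Clock genes also differed from mock, with 10 of 11 called in each treatment, 6 higher and 4 lower. In 2-AA against flg22, 0 of 11 were called. CCA1 went from 142 CPM in mock to 5.02 with flg22 and 2.86 with 2-AA, and PRR5 from 1.76 to 49.7 and 51.7 CPM. On the log2 scale LHY changed by -5.19 and -6.21 and ELF4 by 4.46 and 4.72, more than any member below. Of all genes tested, 59.2% were called with flg22 and 62.2% with 2-AA. Mock 3, flg22 2 and 2-AA 2 held 0.0743 to 0.241% chloroplast counts against 0.0211 to 0.0281% in the other 6 libraries. Leaving those 3 libraries out changed no call of a member below. The part of the marker and clock differences in the results was not tested, and in whole seedlings a smaller share of a cell type and less RNA per cell cannot be told apart.

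NHL3, NHL10 and NDR1 were higher with both treatments than in mock, NHL2 was slightly lower, NHL1 was not called, and NHL25 was close to absent. With flg22, 3 of the 5 members that passed the filter on low counts were higher and 1 was lower, where 29.8% of all 21059 genes tested were called higher and 29.4% lower. With 2-AA the counts were again 3 and 1 of 5, where 31.2% and 31.1% of all genes were called higher and lower. Both comparisons share the mock libraries. Across both directions 59.2% of all genes were called with flg22 and 62.2% with 2-AA, so 4 of 5 members called is to be read against a majority of genes. The 4 called members had no overlap between treated and mock libraries, as had 65.5% and 67.9% of all genes.

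**Figure D1:**
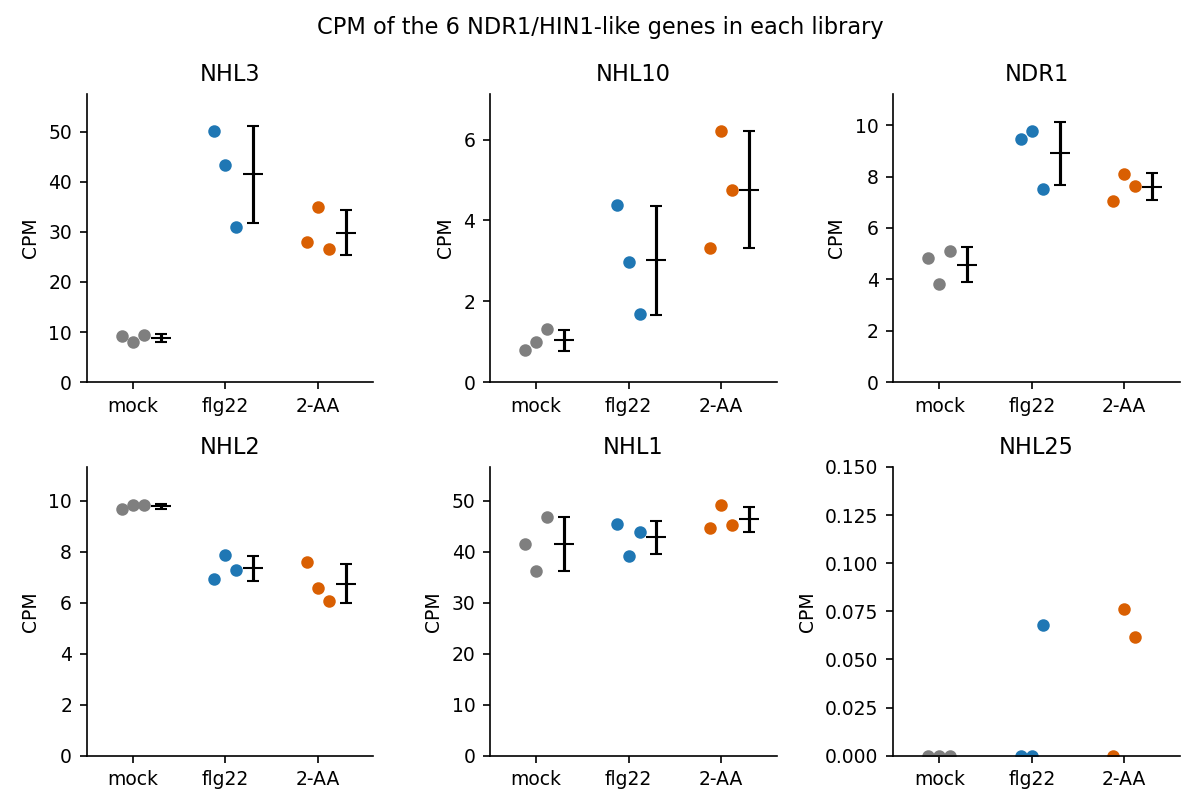
CPM (y axis, from 0, separate scale in each panel) of the 6 genes in the 3 mock, 3 flg22 and 3 2-AA libraries; each point is a library, in the order of its replicate number, and bars give mean ± SD (left out for NHL25, which is at or near 0). All treated libraries lie above mock for NHL3, NHL10 and NDR1 and below it for NHL2, and for NHL1 the groups overlap.

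NHL3 (AT5G06320) encodes a plasma membrane protein whose overproduction is known to raise resistance to Pseudomonas syringae. It lies on the minus strand of chromosome 5 at 1930793 to 1931782 (TAIR10.1 coordinates) and has a single exon, which covers 976 bases and ends short of the upper end of the gene feature. Its levels were 9.14, 7.94 and 9.34 CPM in mock replicates 1, 2 and 3. With flg22 they were 50.1, 43.4 and 31.0 CPM, and with 2-AA 28.0, 35.0 and 26.6 CPM. Every treated library was above every mock library, and flg22 replicate 3 lay inside the range of the 2-AA libraries. NHL3 rose 4.71-fold with flg22 (2.24 ± 0.17 on the log2 scale, estimate ± SE; edgeR adjusted p = 1.07e-07) and 3.39-fold with 2-AA (1.76 ± 0.16, adjusted p = 7.96e-07). Of all genes tested, 2.44% had a larger rise with flg22 and 4.50% with 2-AA.

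Counts of NHL3 carry a doubt of annotation. The gene AT5G06310 on the other strand shares 159 exon bases with it, and the non-coding AT5G01255, also on the other strand, shares 281. The sources used here do not say whether counting used strand, so reads in these stretches cannot be told apart. AT5G01255 was listed at 0 counts in all libraries. AT5G06310 had 82 to 154 counts in mock, 77 to 105 with flg22 and 72 to 124 with 2-AA, groups that overlap.

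NHL10 (AT2G35980) lies on the plus strand of chromosome 2 at 15110492 to 15111539, also as a single exon. It was a low gene, with 0.803, 1.00 and 1.32 CPM in mock replicates 1, 2 and 3, from 24, 33 and 40 counts. With flg22 it reached 4.39, 2.97 and 1.69 CPM, and with 2-AA 3.32, 6.21 and 4.75 CPM. Both treated groups lay wholly above mock, but flg22 replicate 3 exceeded the highest mock library by little, and the treated groups overlapped. The SD was 44.8% of the mean with flg22, 30.4% with 2-AA and 24.8% in mock (n = 3 each), the widest relative spread of the 5 members tested. NHL10 rose 2.89-fold with flg22 (95% interval of the log2 fold change 0.75 to 2.31; adjusted p = 0.00254) and 4.55-fold with 2-AA (1.41 to 2.96; adjusted p = 0.000136). Larger rises were seen for 4.93% of all genes with flg22 and 2.94% with 2-AA.

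NDR1 (AT3G20600) lies on the plus strand of chromosome 3 at 7194771 to 7195769 in a single exon. Levels were 4.82, 3.80 and 5.10 CPM in mock, 9.44, 9.77 and 7.51 CPM with flg22, and 7.05, 8.11 and 7.65 CPM with 2-AA, each by replicate 1, 2 and 3. The treated libraries were all above the mock libraries and overlapped each other. NDR1 rose 1.95-fold with flg22 (log2 fold change 0.96, SE 0.16, adjusted p = 0.000143) and 1.66-fold with 2-AA (0.73, SE 0.16, adjusted p = 0.00116). Tested against a change of 1.5-fold, the rise with 2-AA did not pass (adjusted p = 0.196). Larger rises were seen for 10.4% of all genes with flg22 and 15.7% with 2-AA.

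NHL2 (AT3G11650) and NHL1 (AT3G11660) are single-exon neighbours on the minus strand of chromosome 3, at 3675953 to 3677279 and 3678595 to 3679943, with 1315 bases between them. Overproduction of NHL2 is annotated to induce the pathogenesis-related gene PR1 and lesions in light. In mock, NHL2 stood at 9.67, 9.85 and 9.83 CPM, an SD of 1.01% of the mean. These levels came from 289, 324 and 299 counts, where counting error alone is larger than that SD. The close agreement is therefore no measure of precision. It was at 6.92, 7.88 and 7.27 CPM with flg22 and at 7.59, 6.59 and 6.08 CPM with 2-AA, so that all treated libraries lay below mock. The fall was to 0.752 of mock with flg22 (log2 fold change -0.41, SE 0.12, adjusted p = 0.0114) and to 0.690 with 2-AA (-0.54, SE 0.12, adjusted p = 0.00207), and neither fall passed the test against 1.5-fold.

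NHL1 stood at 41.6, 36.3 and 46.9 CPM in mock, 45.4, 39.2 and 43.9 CPM with flg22, and 44.6, 49.3 and 45.2 CPM with 2-AA. The groups overlapped, in contrast to its neighbour NHL2. Its log2 fold change was 0.04 with flg22 (95% interval -0.15 to 0.24; adjusted p = 0.696) and 0.16 with 2-AA (-0.04 to 0.35; adjusted p = 0.15). A difference in response between the neighbours was not tested.

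NHL25 (AT5G36970) is annotated as induced in incompatible responses to a pathogen, in part through salicylic acid. It lies on the minus strand of chromosome 5 at 14604199 to 14605310 and has 2 exons and 1 intron. It had 0 counts in the 3 mock libraries, 2 counts in flg22 replicate 3 and 2 counts each in 2-AA replicates 2 and 3. The other libraries had 0. Each of these values is below the floor of 3 counts in a library, so NHL25 did not pass the filter, no fold was computed, and a difference was not detectable at this depth.

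**Figure D2:**
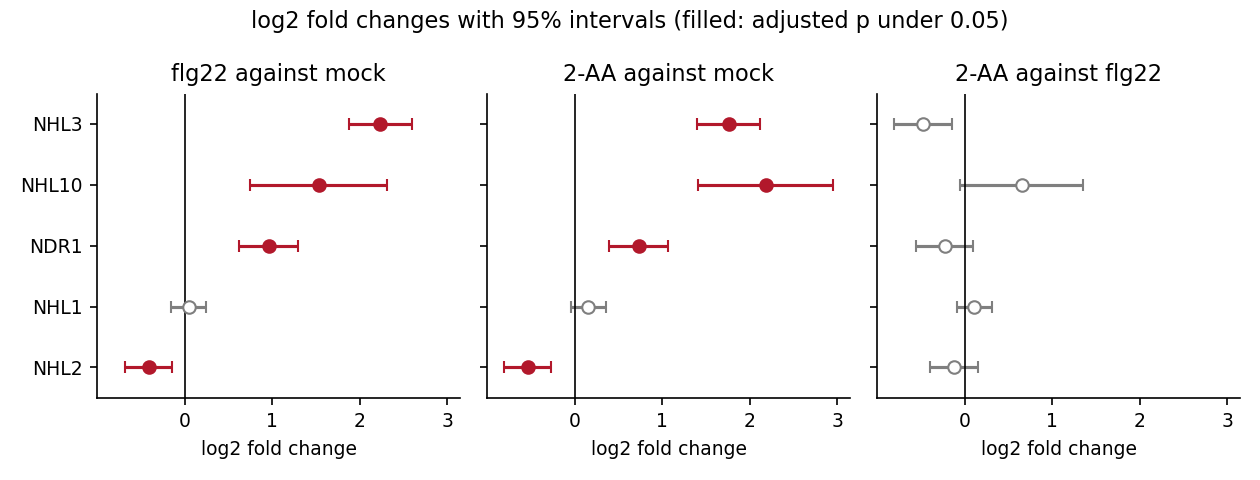
log2 fold change (x axis) of the 5 members tested in the 3 comparisons, with 95% intervals from the edgeR fit of all 9 libraries; filled points have an adjusted p under 0.05. NHL3, NHL10 and NDR1 lie to the right of 0 and NHL2 to the left in both comparisons with mock, and no member is filled in 2-AA against flg22.

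Set directly against flg22, 2-AA gave no call for any of the 5 members in edgeR, where 15.8% of all genes were called, 7.86% higher and 7.89% lower; 1 member (NHL3) had an unadjusted p under 0.05. NHL3 was lower with 2-AA by a log2 fold change of -0.48 (95% interval -0.81 to -0.14, adjusted p = 0.053), just outside the threshold. DESeq2 and limma-voom each called it lower (adjusted p = 0.023 and 0.0481), and edgeR did so without flg22 replicate 3 (-0.65, adjusted p = 0.00418). NHL10 had a log2 fold change of 0.65 (-0.06 to 1.36; adjusted p = 0.215). That value was 1.03 without flg22 replicate 1 (adjusted p = 0.0702), 0.36 without flg22 replicate 3 (0.507) and 0.42 without 2-AA replicate 2 (0.554). The intervals were -0.56 to 0.10 for NDR1, -0.08 to 0.31 for NHL1 and -0.39 to 0.15 for NHL2. A missed threshold does not show that the treatments gave the same level.

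Within a library, the ratio of NHL10 to NHL3 does not depend on the library scaling. For 100 counts of NHL3 there were 8.79, 12.6 and 14.1 counts of NHL10 in mock, 8.78, 6.84 and 5.45 with flg22, and 11.8, 17.8 and 17.9 with 2-AA. The 2-AA libraries were all above the flg22 libraries, and the highest flg22 library lay just under the lowest mock library. The ratio was 2.26-fold higher with 2-AA than with flg22 (exact permutation test on log2 ratios, two-sided, p = 0.1, the smallest that 3 against 3 allows; 0.15 after Benjamini-Hochberg over 3 comparisons). This ratio was chosen after the values were seen. Leaving out each treated library in turn gave 2.01 to 2.58-fold.

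**Figure D3:**
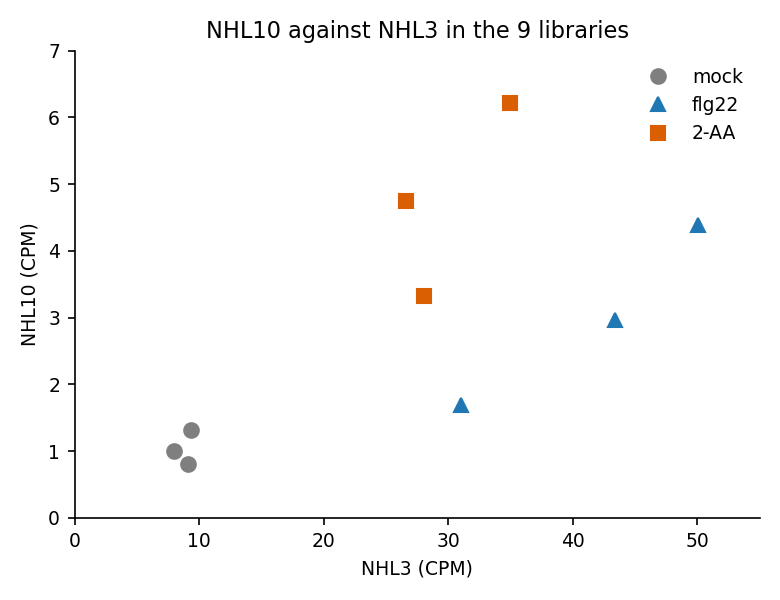
NHL10 (y axis, CPM) against NHL3 (x axis, CPM) in the 9 libraries, each point a library. The 3 2-AA libraries hold 3.32 to 6.21 CPM of NHL10 at 26.6 to 35.0 CPM of NHL3, and the 3 flg22 libraries 1.69 to 4.39 CPM of NHL10 at 31.0 to 50.1 CPM of NHL3.

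Between genes, levels were compared in CPM per kilobase of annotated exon (mean ± SD, n = 3). In mock, NHL1 led with 30.8 ± 3.91, followed by NHL3 (9.02 ± 0.777), NHL2 (7.38 ± 0.0748), NDR1 (4.58 ± 0.683), NHL10 (0.993 ± 0.246) and NHL25 at 0; no neighbours in this order overlapped. With flg22, NHL3 stood at 42.5 ± 9.90 and NHL1 at 31.8 ± 2.39, with overlapping libraries. NDR1 followed at 8.92 ± 1.22, above NHL2 at 5.55 ± 0.368 and NHL10 at 2.88 ± 1.29. With 2-AA, NHL1 (34.4 ± 1.86) and NHL3 (30.6 ± 4.60) overlapped, as did NHL2 (5.09 ± 0.582) and NHL10 (4.54 ± 1.38), while NDR1 was at 7.61 ± 0.533. NDR1 was thus under NHL2 in mock and over it in both treatments.

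The 6 genes together took 58.9 to 72.5 CPM in mock, 91.5 to 116 CPM with flg22 and 90.4 to 105 CPM with 2-AA. NHL1 made up 61.6 to 64.7% of that sum in mock, and 38.0 to 48.0% with flg22 and 46.8 to 50.1% with 2-AA. The share of NHL3 went from 12.9 to 13.8% in mock to 33.9 to 43.1% with flg22 and 29.4 to 33.2% with 2-AA.

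**Figure D4:**
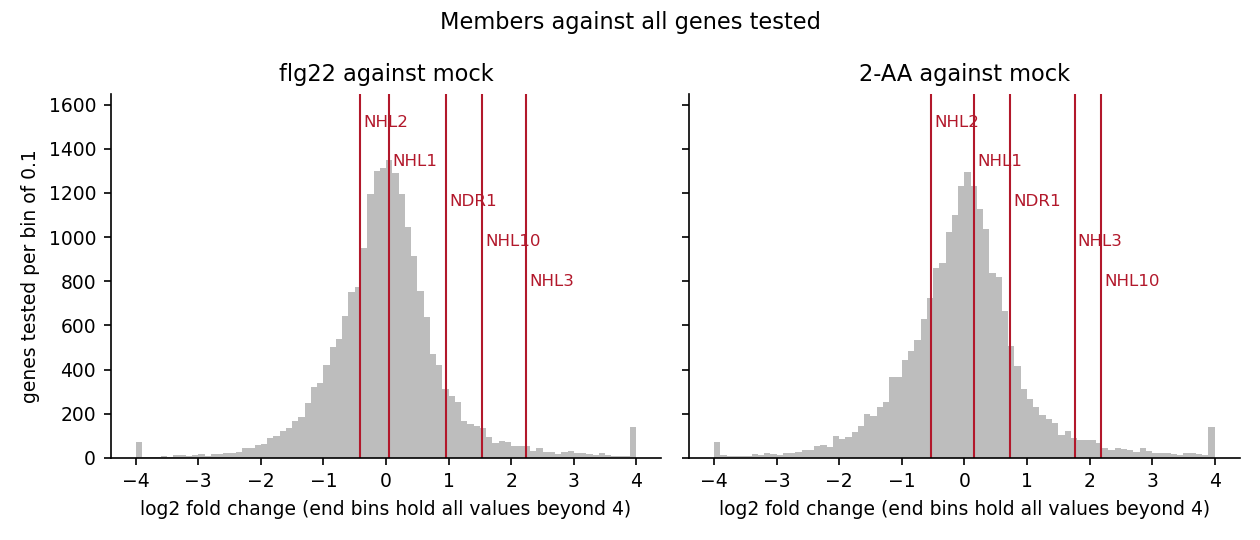
Number of genes tested (y axis) by log2 fold change (x axis, bins of 0.1, end bins holding all values beyond 4) with flg22 and with 2-AA against mock; red lines mark the 5 members. NHL3 and NHL10 lie in the upper tail, where 2.44 to 4.93% of genes rose more, and NHL1 lies near the centre.

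Promoter sequences of 3 members that rose and of NHL2, which fell, are shown because W boxes, the sites bound by WRKY transcription factors, are common in promoters of defence genes. Each is the 300 bases before the annotated transcript start, read 5′ to 3′ along the gene from the RefSeq TAIR10.1 genome: chr5:1931769-1932068 (minus strand) for NHL3, chr2:15110192-15110491 (plus strand) for NHL10, chr3:7194471-7194770 (plus strand) for NDR1 and chr3:3677280-3677579 (minus strand) for NHL2. Capitals mark a W box, searched as TTGACC or TTGACT on both strands.
NHL3: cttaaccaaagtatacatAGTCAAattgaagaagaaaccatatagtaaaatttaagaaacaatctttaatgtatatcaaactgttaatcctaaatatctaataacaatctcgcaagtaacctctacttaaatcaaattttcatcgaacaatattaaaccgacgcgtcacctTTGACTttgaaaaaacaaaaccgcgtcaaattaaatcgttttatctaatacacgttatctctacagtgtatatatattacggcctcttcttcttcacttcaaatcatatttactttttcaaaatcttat
NHL10: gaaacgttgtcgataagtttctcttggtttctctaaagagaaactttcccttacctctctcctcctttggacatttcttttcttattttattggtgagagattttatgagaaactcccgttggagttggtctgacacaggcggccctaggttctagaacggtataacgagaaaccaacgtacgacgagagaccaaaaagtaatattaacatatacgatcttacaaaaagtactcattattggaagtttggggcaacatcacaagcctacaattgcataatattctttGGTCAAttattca
NDR1: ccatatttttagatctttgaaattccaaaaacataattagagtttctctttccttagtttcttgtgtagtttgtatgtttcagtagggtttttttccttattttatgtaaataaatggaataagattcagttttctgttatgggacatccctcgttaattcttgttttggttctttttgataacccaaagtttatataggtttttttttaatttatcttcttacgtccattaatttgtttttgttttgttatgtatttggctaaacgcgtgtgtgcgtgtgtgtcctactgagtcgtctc
NHL2: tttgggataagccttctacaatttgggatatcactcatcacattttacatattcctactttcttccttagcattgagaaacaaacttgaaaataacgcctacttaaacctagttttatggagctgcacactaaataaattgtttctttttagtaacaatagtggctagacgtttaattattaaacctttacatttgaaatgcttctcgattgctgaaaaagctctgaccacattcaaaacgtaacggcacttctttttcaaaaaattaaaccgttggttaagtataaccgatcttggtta

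NHL3 held 2 W boxes (TTGACT) in this window, at -282 to -277 on the other strand and at -129 to -124 on the gene's own strand, with -1 as the last base before the start, and 7.91% of all windows held at least 2. NHL10 held 1 (TTGACC, on the other strand), at -13 to -8. The windows of NDR1, NHL1, NHL2 and NHL25 held neither word. Among 27443 protein-coding genes of the nuclear chromosomes, 32.3% of such windows held at least 1 of the 2 words, so that 2 of 6 members is close to the background. TGACG, the core of sites for TGA factors, was found in 1 of 6 members, NHL3 (21.3% of all windows), and CACGTG, the G-box, and AAAATATCT, the evening element of clock-controlled genes, in 0 of 6 (7.09% and 2.78% of all windows; the words were counted on both strands and none of the matches in members overlapped). A match is a run of letters and was not tested as a site.

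Coding sequences were aligned pairwise to see how far reads could be shared. NHL2 and NHL3 were the closest pair, with 71.8% identical bases, followed by NHL3 and NHL10 (60.4%) and NHL2 and NHL10 (59.5%), while NHL1 and its neighbour NHL2 had 50.1%. NDR1 had 45.0 to 48.9% with each of the others. The longest stretch shared exactly by NHL2 and NHL3, the closest pair, was 33 bases, which lie at chr3:3676640.0-3676672.0 (minus strand) in NHL2.
NHL2 and NHL3: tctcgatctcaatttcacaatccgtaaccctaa

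NDR1 shared a longer stretch of 88 bases with AT3G20590, a relative 2129 bases away, at chr3:7195051.0-7195138.0 (plus strand) in NDR1. Reads that fall inside it cannot be assigned to either gene.
NDR1 and AT3G20590: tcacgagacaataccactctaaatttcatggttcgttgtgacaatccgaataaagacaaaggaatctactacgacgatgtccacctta

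AT3G20590 was at 3.10 ± 0.995 CPM in mock, 2.63 ± 0.986 with flg22 and 1.32 ± 0.245 with 2-AA (mean ± SD, n = 3 each). It fell with 2-AA (log2 fold change -1.24, adjusted p = 0.00554) and was not called with flg22 (-0.24, adjusted p = 0.545), unlike NDR1, which rose with both. AT2G35970, a relative 718 bases from NHL10, was listed at 0 counts in all libraries.

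The reference table names 4 more loci NHL, of which 3 passed the filter. NHL26, known from work on sugar export from the phloem, went from 1.64 ± 0.529 CPM in mock to 8.70 ± 1.97 with flg22 and 9.53 ± 0.778 with 2-AA (mean ± SD, n = 3). It rose by 2.41 and 2.54 on the log2 scale (adjusted p = 1.01e-06 and 5.00e-07). NHL12, which lies 2405 bases from NHL10, was at 18.3 ± 1.17, 20.6 ± 3.07 and 11.3 ± 1.98 CPM, was not called with flg22 (0.17, adjusted p = 0.317) and fell with 2-AA (-0.70, adjusted p = 0.000772). Set directly against flg22, 2-AA gave less NHL12 (-0.87, adjusted p = 0.00107). NHL8 rose by 0.33 and 0.42 (adjusted p = 0.00967 and 0.00197), and NHL22 did not pass the filter.

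Beyond the 6 members, the annotation gives 41 loci the family name of late embryogenesis abundant hydroxyproline-rich glycoproteins or NDR1/HIN1-like proteins, the 4 above included. Of these, 30 passed the filter. With flg22, 8 rose, 5 fell and 17 were not called (median log2 fold change 0.03, against -0.00 for all genes tested). With 2-AA, 9 rose, 9 fell and 12 were not called (median 0.14). The shares that rose are close to those of all genes, 29.8% and 31.2%, as is the share that fell with 2-AA (31.1% of all genes), while with flg22 29.4% of all genes fell. Changes ran from -1.08 to 2.41 with flg22 and from -1.57 to 3.18 with 2-AA.

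**Figure D5:**
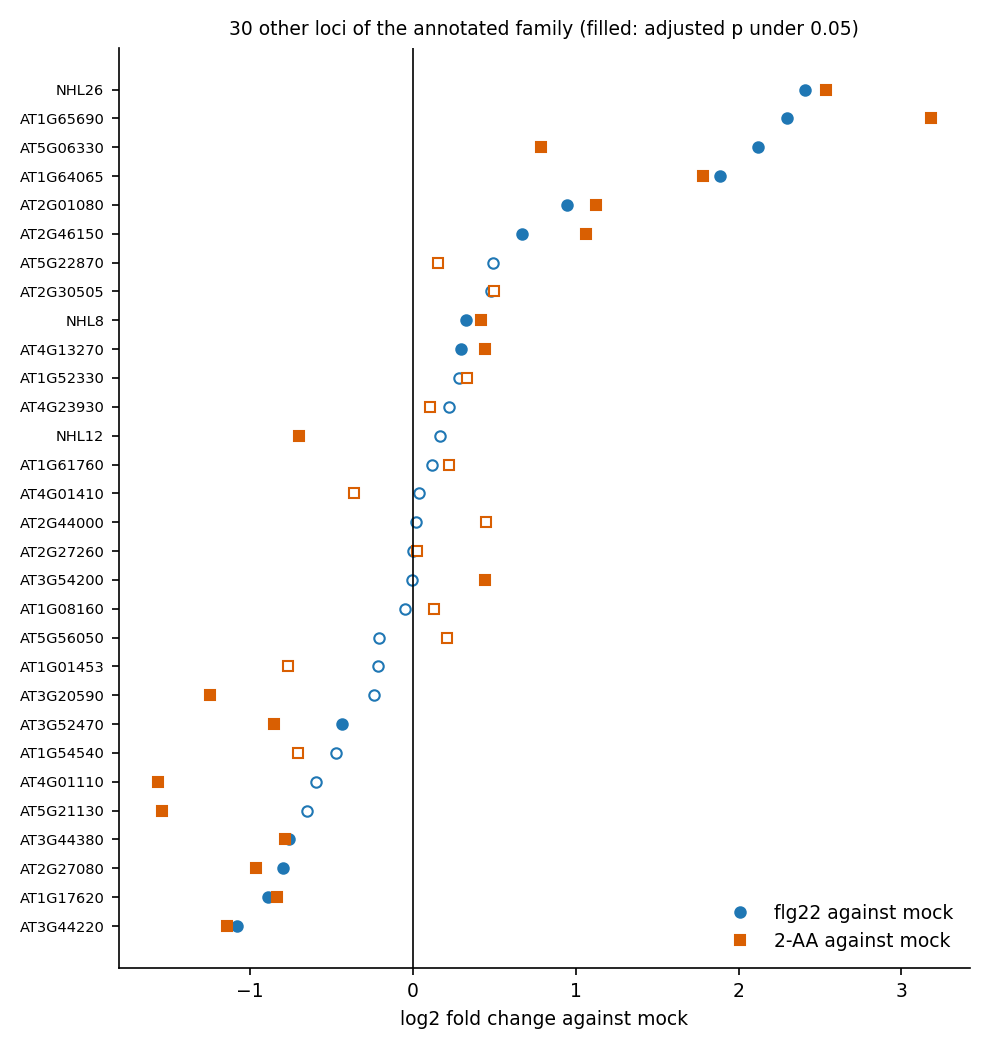
log2 fold change against mock (x axis) of the 30 other family loci tested (y axis), circles for flg22 and squares for 2-AA, filled where the adjusted p is under 0.05. NHL26, AT1G65690 and AT5G06330 lie farthest right with flg22, between 2.12 and 2.41, and AT5G06330 moves back to 0.79 with 2-AA.

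In 2-AA against flg22, 2 of the 30 relatives tested were higher, 4 lower and 24 not called. Of all genes tested, 7.86% were higher and 7.89% lower in that comparison. Among these relatives 2 were singled out after their values were seen. AT1G65690 went from 4.05 ± 0.242 CPM in mock to 19.9 ± 8.0 with flg22 and 36.8 ± 5.84 with 2-AA, and was higher with 2-AA than with flg22 (log2 fold change 0.88, adjusted p = 0.015). AT5G06330, which lies 2107 bases from NHL3, had 57, 51 and 35 counts in mock, 208, 205 and 173 with flg22, and 81, 85 and 70 with 2-AA. Its 3 groups did not overlap in CPM. It was lower with 2-AA than with flg22 (-1.34, adjusted p = 0.00113), the same sign as the difference of NHL3 that missed the threshold. With NHL1 it shares a stretch of 39 identical bases.

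A list of 16 genes was drawn up around NDR1. It was not limited to genes that act with NDR1 and also held EDS1, PAD4 and SAG101, which were higher with both treatments. EDS5 and NPR1 stood both here and in the salicylic acid list below. Of the 16 genes, 15 were tested. With flg22, 11 were higher, 1 lower and 3 not called (median log2 fold change 0.87), and with 2-AA 11 were higher, 2 lower and 2 not called (median 1.03). Here and for the lists below, the shares over all genes tested were 29.8% higher and 29.4% lower with flg22, and 31.2% and 31.1% with 2-AA. RIN4, the partner of NDR1, rose by 0.80 with flg22 and 1.35 with 2-AA, and RIPK, a kinase that phosphorylates RIN4, by 0.82 and 2.64. RPM1, an intracellular receptor that needs NDR1, rose by 1.49 and 1.88, and AHA1, a plasma membrane proton pump bound by RIN4, by 0.87 and 0.93. The chaperone gene HSP90.2 fell by 2.03 and 1.76. RPS2, another receptor that needs NDR1, was listed at 0 counts in all libraries, and the counts do not tell a lack of RNA from the way reads were assigned. In 2-AA against flg22, 4 of the 15 were higher and 0 lower (7.86% and 7.89% of all genes), RIPK by 1.82 and RIN4 by 0.54, whereas NDR1 was not called (-0.23).

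Of 14 early flagellin markers, 12 rose and 1 fell with flg22 (median 1.48), and 12 rose and 2 fell with 2-AA (median 2.01). PHI-1 fell with both (log2 fold change -2.56 and -3.22). PROPEP3, at 0.780 CPM in mock, fell with 2-AA (-1.35) and was not called with flg22 (0.77). FRK1, a receptor-like kinase gene, changed by 5.86 and 6.37, so that NHL10, at 1.53 and 2.18, lay close to the median of this list and NHL3, at 2.24 and 1.76, above it with flg22 and below it with 2-AA. PUB22, a ubiquitin ligase gene, rose by 2.21 and 3.15, MYB51, a factor gene of indole glucosinolates, by 1.84 and 1.64, and WRKY30 by 2.55 and 5.33. Of 14 salicylic acid genes, 10 rose and 0 fell with flg22 (median 1.57), and 8 rose and 3 fell with 2-AA (median 0.76). CBP60G, SARD1 and PBS3 had the smallest p of that list with flg22 (3.47, 4.03 and 5.60), and CBP60G, NPR1 and PR5 with 2-AA (3.77, 1.09 and 1.68). SARD1 and PBS3 also rose with 2-AA (2.20 and 4.02) and NPR1 with flg22 (0.87), while PR5 was not called with flg22 (0.22). PBS3 had a mean of only 0.414 CPM in mock. In this list 5 genes were lower and 1 higher with 2-AA than with flg22 (7.89% and 7.86% of all genes). The 3 that fell with 2-AA against mock were PR2 (-1.50), EDS5 (-0.59) and FMO1 (-1.18). PR2 and FMO1 were low genes, from means of 0.604 and 0.957 CPM in mock to 0.205 and 0.415 with 2-AA. EDS5 went from 12.3 to 8.21 CPM. PR1 rose by 3.88 (SE 0.86) with flg22 and was not called with 2-AA (0.20, SE 0.99). Its means were 0.695 CPM in mock, 10.2 with flg22 and 0.766 with 2-AA.

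Because NHL10 is also a senescence gene, 13 tested genes of leaf senescence were counted. With flg22 8 rose and 1 fell (median 0.73), and with 2-AA 10 rose and 1 fell (median 1.10). The gene that fell was SAG29 in each treatment, by log2 fold changes of -4.19 and -3.90. Its means were 10.5 CPM in mock, 0.567 with flg22 and 0.690 with 2-AA. NYC1, an enzyme gene of chlorophyll breakdown, rose by 2.57 and 3.07 and SAG21 by 1.46 and 2.13. SEN1 rose by 2.37 and 2.12 and WRKY6 by 1.34 and 2.51. All these rises were in edgeR at adjusted p under 0.05. SAG12, a protease gene of late senescence, was also listed at 0 counts in all libraries, with the same limit as for RPS2. The lists were chosen with earlier results of these libraries known. Beside all of them 10 of 11 clock genes were called in each treatment, where 59.2% and 62.2% of all genes were.

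Over the 9 libraries, the log2 CPM of NDR1 and NHL3 had a Pearson r of 0.975, NHL3 and NHL10 0.836, and NHL2 and NHL10 -0.899. These values describe libraries that fall into mock and treated, share scaling and are no test. By the same measure over 15428 genes, those most like NHL3 were AT3G51330, AT3G61010 and AT3G21080 (r of 0.993 to 0.994). Those most like NHL10 were AT2G24360, the MAP kinase gene MPK1, the LysM receptor-like kinase gene LYK4, AT1G76070 and AT5G64100 (0.979 to 0.984). Those most like NDR1 were AT2G40390, AT5G43520 and AT1G26380 (0.983 to 0.986), those most like NHL2 AT1G01920, TBL33 and AT3G62200 (0.976 to 0.979), and those most like NHL1 UBP18, AT3G08530 and KCO6 (0.926 to 0.931).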

How the data were processed

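RNA of whole seedlings was sequenced in 9 libraries made with the TruSeq kit, per the labels' protocols. The authors deposited 1 table of raw counts per locus for 32833 loci. Trimmomatic 0.36, HISAT2, edgeR and TAIR10 are named in the submitters' processing notes. The sources used here name no counting program and no strand setting. Of the loci, 32548 matched the RefSeq TAIR10.1 table, which supplied names and coordinates.

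Counts were fitted for all 9 libraries together with edgeR 4.0.16 in R 4.3.3 (TMM scaling, minimum count 10 and minimum total 15 in filterByExpr, quasi-likelihood test, 6 residual degrees of freedom), with Benjamini-Hochberg adjustment over the 21059 genes tested and a threshold of 0.05. The common biological coefficient of variation was 0.119. CPM used the TMM factors, and correlations used log2 CPM with a prior count of 2. SE is the log2 fold change over the root of F, and intervals are 95%. A run on simulated counts gave all genes the same spread and changed few of them, unlike these data, and no result rests on it. Alternatives were DESeq2 1.42.0, limma 3.58.1 (voom), other scalings and filters, a replicate block, and leaving out libraries. The text names all 6 members, the 3 genes (5 for NHL10) most like each member by Pearson r among genes with a mean of at least 5 CPM, and in each gene list the called genes with the smallest p. Some other list genes are named beside them. Members and lists were chosen with earlier results of these data known. Of 80 list entries, 2 were dropped because the reference does not give that name to the locus.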

Additional observations from a re-analysis of the deposited data

How the results depend on the processing

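Of 255 fold-change values under alternatives, 243 kept direction and side of the threshold, 8 newly passed, 3 no longer passed and 1 reversed. In 2-AA against flg22, NHL3 passed with upper-quartile factors (-0.51), no filter on low counts (-0.47), DESeq2 (-0.48), limma-voom (-0.47) and the 3 chloroplast-rich libraries as a term (-0.48), so 1 member was then lower in place of 0. Leaving out each replicate gave -0.65 to -0.32, passing without flg22 replicate 3 (-0.65) or 2-AA replicate 2 (-0.60), and 0 to 1 members lower. Against 1.5-fold, NDR1 (0.73) and NHL2 (-0.54) with 2-AA and NHL2 (-0.41) with flg22 did not pass, leaving 0 members lower in each comparison. With each replicate left out, NHL1 with 2-AA ranged over 0.077 to 0.26 and passed without mock replicate 3 (0.26, adjusted p = 0.0207, edgeR). Over the same settings NHL1 with flg22 ranged over -0.036 to 0.15 and reversed without mock replicate 2 (-0.036, adjusted p = 0.755). Without the 3 chloroplast-rich libraries it was 0.21 (adjusted p = 0.0642). The causes were not tested. Over all genes, the test against 1.5-fold called 4836, 5586 and 473 genes with flg22, with 2-AA and between the treatments (12457, 13103 and 3317 otherwise). In 2-AA against flg22, 2090 were called without the 3 chloroplast-rich libraries and 2204 without 2-AA replicate 2. Upper-quartile factors split the calls of that comparison into 1441 higher and 1973 lower, against 1656 and 1661.

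With the replicate number as a block, no call of a member changed, and 12264, 12918 and 3082 genes were called. Deviations of same-numbered libraries correlated at -0.134 to 0.188 and those of other pairs at -0.149 to 0.220, so the numbers were not taken to pair the samples. NHL10 rested on 24 to 40 counts in each mock library, the lowest counts among the 5 members tested.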
